A study of Mus musculus with 2 samples.

Results

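The 10 genes described here build and mineralize bone matrix: Bglap, Bglap2, Ibsp, Spp1, Dmp1, Alpl, Phex, Ifitm5, Enpp1 and Sparc. They were picked by symbol and not by a rule on measured values, although earlier results of these data were known at the time. They make up 10 of the 32285 genes counted. All 10 were detected. The cells came from healing bone around a calvarial defect in C57BL/6 mice (C57BL/6J in the paper), dissected 7 days after injury and profiled by 10x Genomics single-cell RNA sequencing of transcript 3′ ends. The study asked how gambogic amide (GA), a small molecule given to activate the nerve growth factor receptor TrkA, alters bone repair. GA mice received intraperitoneal injections of 100 µL, with GA at a dose that the labels give as 1.2 mg/kg dissolved in 10% DMSO, and control mice received the same volume of 10% DMSO alone. Injections began 24 h before the defect was made and were repeated daily for 1 week. Both groups were wild type and injured, so neither an uninjured nor an untreated reference was compared. The mice were male and 2 months old, and the cells of 5 mice per group were pooled. There was thus 1 library per condition, and no test between GA and control was possible.

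Osteoblasts secrete a collagen scaffold that is then filled with hydroxyapatite. Alkaline phosphatase (Alpl) degrades pyrophosphate, an inhibitor of mineral, whereas Enpp1 produces it. The SIBLING proteins bone sialoprotein (Ibsp), osteopontin (Spp1) and Dmp1 are acidic matrix proteins that bind mineral, and Phex is a membrane endopeptidase of late osteoblasts and osteocytes whose substrates include SIBLING proteins. Osteocalcin (Bglap, Bglap2) and osteonectin (Sparc) are abundant proteins of the matrix, and Ifitm5 is a small membrane protein of bone-forming cells. Mice carry a further osteocalcin-related copy, Bglap3, which is reported beside its neighbours.

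Levels are given as CPM, the UMIs (unique molecular identifiers, counted molecules) of a gene summed over the cells of a group and scaled by the total UMIs of the same cells. The libraries held 182949385 (GA) and 214993030 (control) UMIs. After filtering, 8380 GA and 7553 control cells remained, with medians of 10968.5 and 16299 UMIs. Their composition differed: neutrophil-like cells made up 52.6% of GA and 27.6% of control cells, macrophage-like cells 9.22% and 19.0%, and the mesenchymal lineage 10.4% (870 cells) and 22.9% (1726 cells). Clustering left out the 10 genes and Bglap3. The mesenchymal lineage formed 15 clusters, and the osteoblast-like population consisted of clusters 9 and 13, with 79 GA and 67 control cells. This was 9.08% of the GA and 3.88% of the control lineage, a ratio of 2.34 (95% interval for counting error 1.71 to 3.21). Of all kept cells, osteoblast-like cells made up 0.943% in GA (0.747 to 1.17%) and 0.887% in control (0.688 to 1.13%), which was close. The other mesenchymal cells made up 9.44% and 22.0%, so the ratio within the lineage also reflects their lower share in GA. All 13 osteoblast markers fixed for naming, such as Sp7, were present in both libraries and summed to 5807 and 6208 CPM in osteoblast-like cells against 327 and 444 CPM in the other mesenchymal cells. Median depth in osteoblast-like cells was 40742 UMIs in GA and 40178 in control, and median mitochondrial shares were 2.87% and 2.94%. The libraries shared 18 barcodes among kept cells.

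Other mesenchymal populations were named after the markers of the study as Stem 1-, Stem 2-, multilineage progenitor- and fibroblastic progenitor-like. Cluster 7 (46 GA and 44 control cells) stayed unnamed because neutrophil genes such as S100a8, S100a9 and Camp were among its 10 leading genes. Bglap and Bglap2 stood first among these 10. Among the 10 leading genes of clusters 3, 5 and 14 was 1 listed marker of another cell type (Acta2 or Cdh5) and none of their own. Actg2, Cnn1 and Tagln, which are on none of the marker lists, were also among those of cluster 3. Stem 1-, multilineage- and fibroblastic-like cells were therefore compared by cluster number and not as classes.

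The osteocalcin genes lie side by side on chromosome 3 within 15.8 kb (GRCm38): Bglap at chr3:88383501-88384464, Bglap2 at chr3:88377736-88378699 and Bglap3 at chr3:88368616-88372743, each on the minus strand. Their coding sequences are printed because their likeness decides how far the counts of the 3 genes can be separated. Each holds 285 bases before the stop codon (GENCODE vM21), and capitals mark the 13 positions at which the 3 differ.
Bglap: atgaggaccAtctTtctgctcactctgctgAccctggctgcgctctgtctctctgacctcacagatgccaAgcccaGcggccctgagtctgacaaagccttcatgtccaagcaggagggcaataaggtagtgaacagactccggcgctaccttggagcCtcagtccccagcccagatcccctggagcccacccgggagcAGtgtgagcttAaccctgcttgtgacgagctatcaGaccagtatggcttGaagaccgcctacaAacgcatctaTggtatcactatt
Bglap2: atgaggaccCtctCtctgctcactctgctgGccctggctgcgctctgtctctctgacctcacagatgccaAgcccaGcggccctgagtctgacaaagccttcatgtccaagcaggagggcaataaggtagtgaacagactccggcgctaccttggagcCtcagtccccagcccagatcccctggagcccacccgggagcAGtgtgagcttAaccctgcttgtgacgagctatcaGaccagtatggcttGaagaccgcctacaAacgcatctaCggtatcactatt
Bglap3: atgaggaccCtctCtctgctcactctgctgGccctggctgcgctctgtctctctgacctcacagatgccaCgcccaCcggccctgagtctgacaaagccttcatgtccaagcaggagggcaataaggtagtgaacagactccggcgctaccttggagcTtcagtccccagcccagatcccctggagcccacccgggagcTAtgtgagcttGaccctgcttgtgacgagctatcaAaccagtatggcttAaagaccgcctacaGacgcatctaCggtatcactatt
Bglap and Bglap2 differed at 4 of these bases (98.6% identity), Bglap and Bglap3 at 13 (95.4%) and Bglap2 and Bglap3 at 9 (96.8%). Within the last 200 bases of the transcript, where 3′ reads fall, Bglap and Bglap2 differed at 1 base and shared a run of 149 identical bases. The split of reads between Bglap and Bglap2 is therefore uncertain, and their values are best read together.

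Ibsp (chr5:104299171-104311469), Spp1 (chr5:104435118-104441050) and Dmp1 (chr5:104202613-104214102) lie on the plus strand of chromosome 5 within 238 kb. RefSeq promoter windows, 250 bases before to 50 after a start site, were found for 9 of the 10 genes (12 windows, GRCm38.p6). The core TGTGGT, bound by RUNX factors such as the osteoblast regulator Runx2, was present on either strand in 5 of these windows, in Bglap, Dmp1, Enpp1, Sparc and Spp1, against 16.8% of all 32851 windows. The letters TATAAA of the TATA box were present in 4 windows, of Alpl, Bglap, Ibsp and Spp1 (13.6% of all windows). They lay 27 bases before the start of Bglap and, on the opposite strand, 28 before that of Ibsp. In Spp1 they lay 211 bases before the first start, and in Alpl, on the opposite strand, 192 before the second. The GC box GGGCGG was present in 3 windows, of Alpl, Enpp1 and Ifitm5 (35.7%). The E-box CANNTG, a short motif, was present in 11 windows of 8 of the 9 genes (72.3%). The 250 bases before the start are shown for Bglap and the SIBLING genes, whose levels were highest in osteoblast-like cells, and capitals mark the RUNX core, here read on the opposite strand as ACCACA.
Bglap, chr3:88384467-88384716, minus strand: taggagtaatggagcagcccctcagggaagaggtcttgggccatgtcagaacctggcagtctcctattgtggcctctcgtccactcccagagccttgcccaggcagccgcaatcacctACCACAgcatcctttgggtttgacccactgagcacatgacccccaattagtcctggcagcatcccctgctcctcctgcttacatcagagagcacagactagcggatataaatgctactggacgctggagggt
Spp1, chr5:104434861-104435110, plus strand: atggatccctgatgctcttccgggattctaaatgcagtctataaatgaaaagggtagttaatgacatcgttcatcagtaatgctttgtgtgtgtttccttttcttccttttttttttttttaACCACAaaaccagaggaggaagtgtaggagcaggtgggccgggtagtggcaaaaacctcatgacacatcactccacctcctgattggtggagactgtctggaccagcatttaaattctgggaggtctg
Dmp1, chr5:104202367-104202616, plus strand: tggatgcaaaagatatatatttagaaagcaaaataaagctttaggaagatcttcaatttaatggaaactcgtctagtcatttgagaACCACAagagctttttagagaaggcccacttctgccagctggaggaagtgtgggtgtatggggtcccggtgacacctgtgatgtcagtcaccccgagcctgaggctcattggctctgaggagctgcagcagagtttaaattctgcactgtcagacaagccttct
Ibsp, chr5:104299037-104299286, plus strand: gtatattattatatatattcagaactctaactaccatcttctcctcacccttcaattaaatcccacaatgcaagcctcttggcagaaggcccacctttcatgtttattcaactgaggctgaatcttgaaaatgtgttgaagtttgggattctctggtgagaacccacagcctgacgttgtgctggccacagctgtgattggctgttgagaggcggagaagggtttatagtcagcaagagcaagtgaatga
The RUNX match lay 132 bases before the start of Bglap, 128 before that of Spp1 and 164 before the second start of Dmp1. The Ibsp window held no RUNX match. A match of letters is a description and not evidence of binding, and no factor binding was measured.

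The 10 genes split into those whose UMIs lay nearly wholly in osteoblast-like cells and those shared with other cells. Osteoblast-like cells held 93.8% of the GA and 99.2% of the control library's Bglap UMIs, and 92.7% and 99.1% of those of Bglap2. For Dmp1 the shares were 98.5% and 94.0%, and for Phex 91.8% and 76.3%. Ifitm5 followed with 78.6% and 82.9%. Ibsp was less confined in control, with 89.2% in GA and 61.0% in control, and cluster 5 (multilineage-like) held 36.4% of the control UMIs but 5.02% of the GA UMIs. The 4 remaining genes lay mainly elsewhere. Osteoblast-like cells held 18.1% and 7.65% of Spp1 UMIs, and macrophage-like cells 65.7% and 82.5%. They held 18.5% and 8.36% of Sparc UMIs, most of which lay in other mesenchymal cells, 22.3% and 15.9% of Alpl UMIs, and 2.48% and 0.89% of Enpp1 UMIs. The share of osteoblast-like cells in each library enters these percentages.

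**Figure D1:**
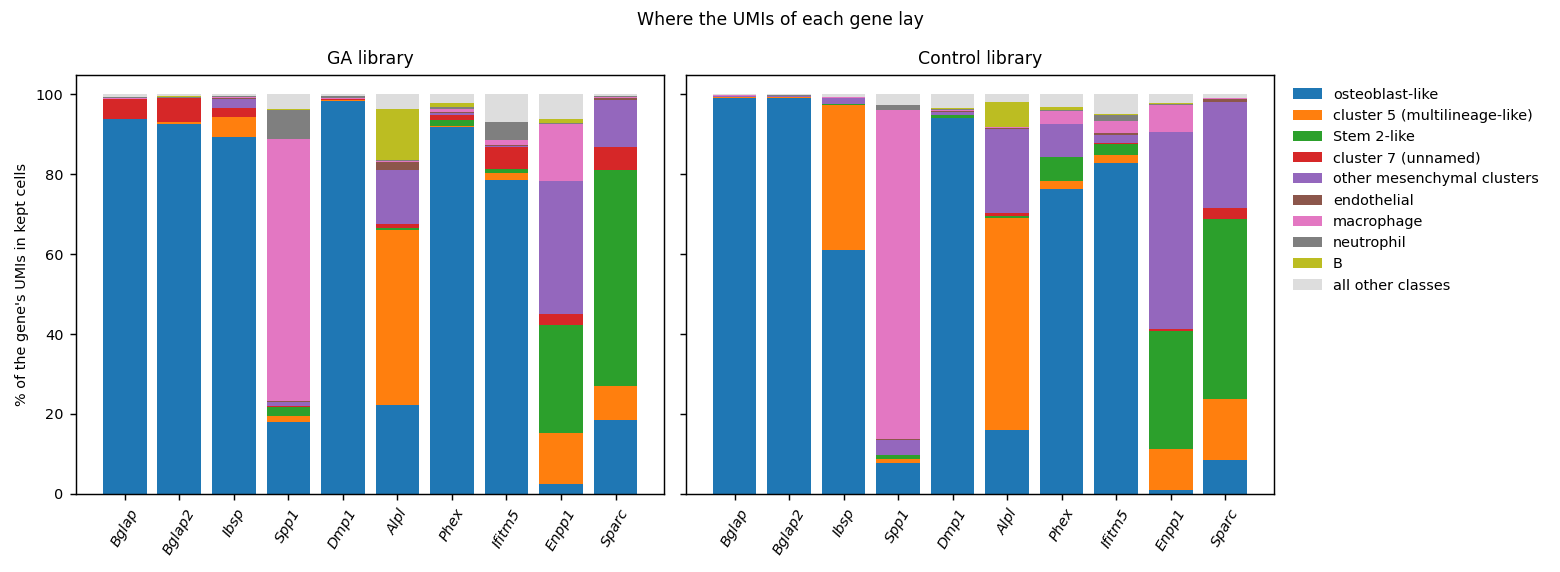
Stacked bars give, for each of the 10 genes, the percentage of its UMIs in kept cells that lay in each cell group of the GA (left) and control (right) library, with the axis from 0 to 100%. Bglap, Bglap2, Dmp1 and Phex bars are filled mostly by osteoblast-like cells, the Spp1 bars by macrophage-like cells, and the Ibsp bar of control also by cluster 5 (36.4%).

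As a level, 8 of the 10 genes were highest in osteoblast-like cells in both libraries, beyond every other class and mesenchymal cluster. Bglap reached 43598 CPM in GA and 47973 in control, and the next groups were cluster 7 at 2836 CPM and pericyte-like cells at 530.3 CPM in GA, both carried by few cells, and a cell class left unnamed at 17.7 CPM in control. Sparc was high in every mesenchymal cluster, outside the osteoblast-like ones from 4480 CPM in GA cells of cluster 6 to 20245 CPM in GA cells of cluster 4, and endothelial-like cells held 3997 and 4060 CPM. Spp1 stood at 7332 CPM in GA and 10357 in control in osteoblast-like cells, and its next highest class was macrophage-like cells (4483 and 8231 CPM). Alpl and Enpp1 departed from the other 8. Alpl was highest in cluster 6 of the GA library (fibroblastic-like, 333 CPM in 19 cells), followed by cluster 5 (182 CPM) and osteoblast-like cells (134 CPM), while in control the order was osteoblast-like (217 CPM), cluster 6 (155 CPM) and cluster 5 (144 CPM). The counting intervals of clusters 6 and 5 overlapped in control (141 to 170 and 137 to 150 CPM). With osteoblast-like cells summed (25.7 and 38.0 CPM), Enpp1 was highest in cluster 3 (Stem 1-like) of control (304 CPM) and, apart from the 1 GA cell of cluster 14 (307 CPM), of GA (228 CPM). The 6 control cells of cluster 13 held 348 CPM, but Enpp1 UMIs lay in only 3 of them. Their median was 46.1 CPM, and 1 cell stood at 1491 CPM.

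**Figure D2:**
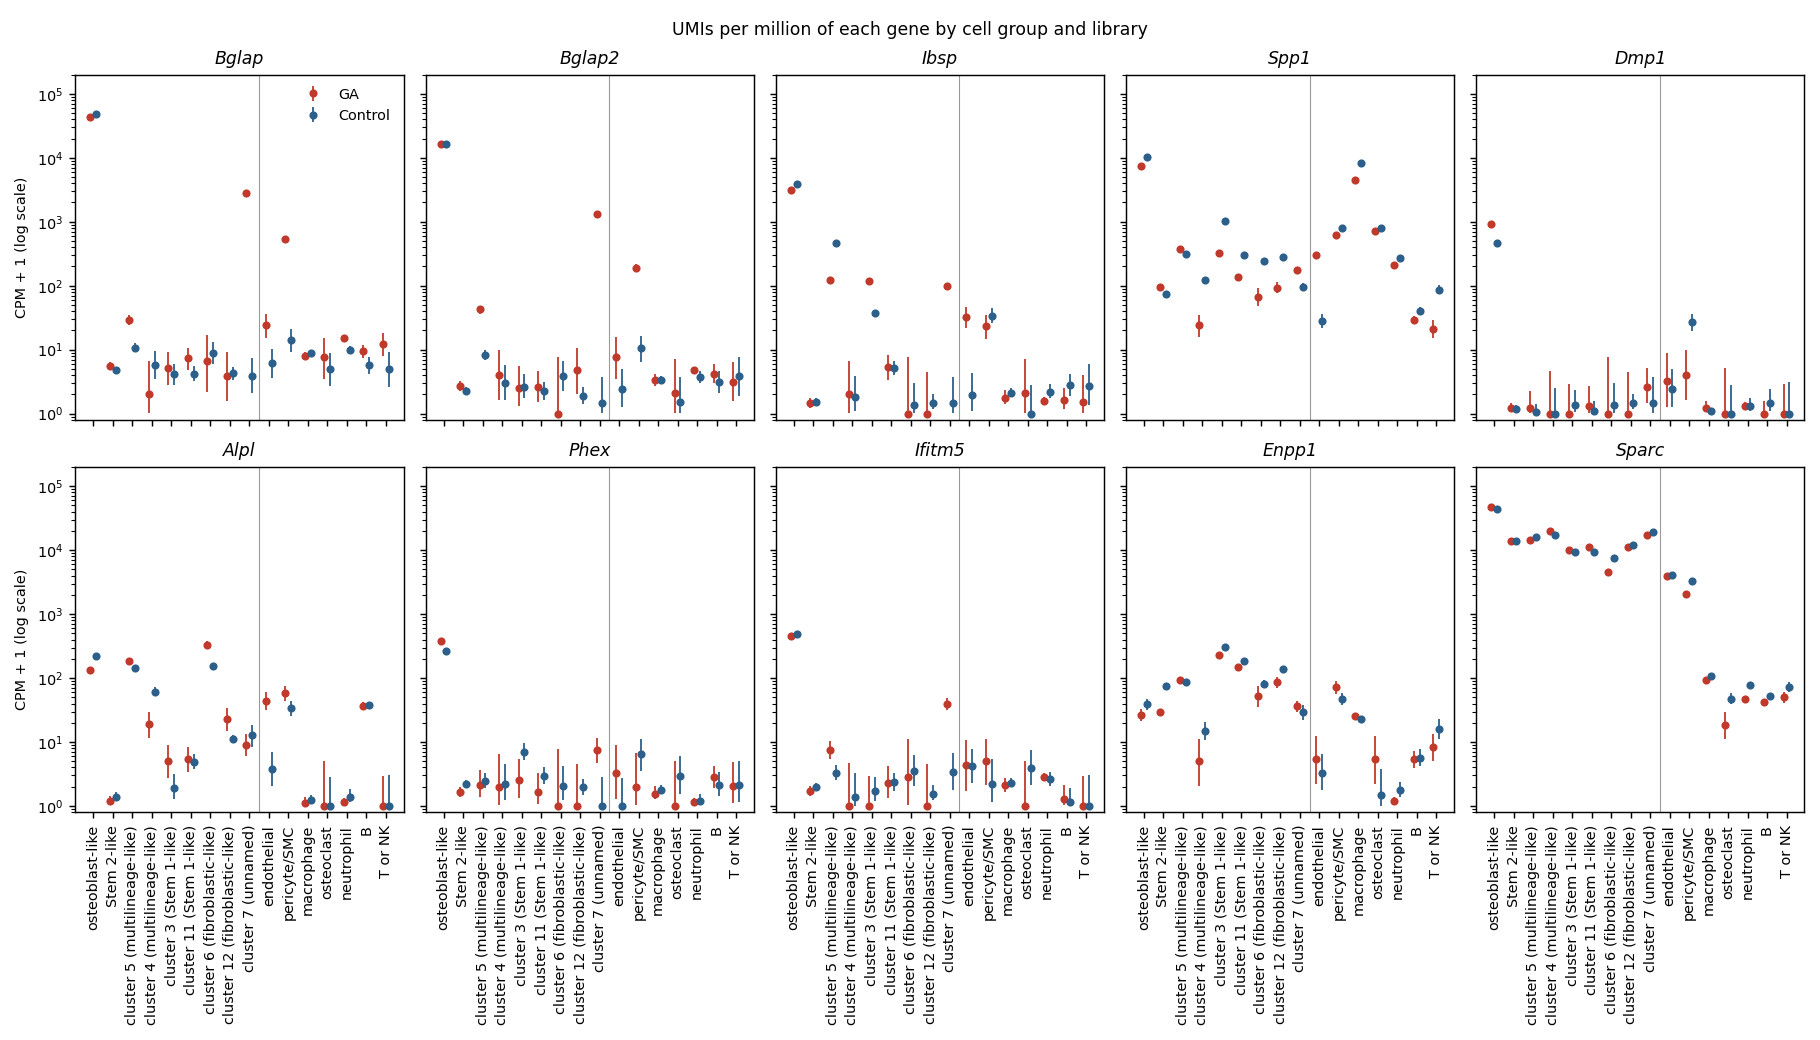
Each panel gives the level of 1 gene (CPM + 1, log scale) by cell group, mesenchymal groups left and other classes right of the grey line, with GA in red, control in blue and bars for exact Poisson 95% intervals, which cover counting error only. Bglap, Bglap2, Dmp1, Phex and Ifitm5 stand apart in osteoblast-like cells, and Sparc is high across mesenchymal groups.

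T or NK-like cells, which are not known to form bone matrix, were used to gauge free transcripts, although they can express Spp1 themselves. Bglap UMIs were found in 9.38% of GA and 3.14% of control T or NK-like cells (11.1 and 3.95 CPM), at median depths of 8796 and 6941 UMIs. Ibsp was found in 0.52% and 1.35% of them, Spp1 in 16.7% and 27.4%, Enpp1 in 7.29% and 9.42% (7.42 and 15.2 CPM), Sparc in 38.0% and 42.6%, and Alpl, Dmp1 and Ifitm5 in 0 of 192 and 0 of 223. In osteoblast-like cells the shares were above these for all 10 genes, at greater depth. Bglap was found in 98.7% of GA and 98.5% of control cells, Bglap2 in 98.7% and 95.5%, Ibsp in 94.9% and 94.0%, Spp1 in 94.9% and 98.5%, Sparc in 100% of both, and Ifitm5 in 87.3% and 89.6%. Phex was found in 65.8% and 56.7%, Dmp1 in 57.0% and 52.2%, and Enpp1 in 24.1% and 23.9%, so these were not uniform even among osteoblast-like cells. Alpl differed most, with 50.6% (exact interval 39.1 to 62.1%) in GA and 79.1% (67.4 to 88.1%) in control. When each cell was thinned to 2000 UMIs, which left out 1 GA cell, the Alpl shares were 21.8% and 28.4% with overlapping intervals, and those of Dmp1 were 34.6% and 25.4%. Thinned shares of Phex were 21.8% and 17.9%, and of Enpp1 3.85% and 4.48%, against 3.70% and 1.83% in T or NK-like and 0.114% and 0.194% in neutrophil-like cells thinned alike. T or NK-like cells thus exceeded neutrophil-like cells for Enpp1 and are no measure of its free transcripts. The Enpp1 intervals of osteoblast-like cells (0.80 to 10.8% and 0.93 to 12.5%) lay above those of neutrophil-like cells (0.037 to 0.266% and 0.053 to 0.497%).

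The comparison of osteoblast-like cells asked whether the GA library differed from control within the cells that form the matrix. Of the 9 genes with at least 200 UMIs there, 0 differed by more than 1 on the log2 scale, and 1.35% of all 2968 genes with that count did. No p-value is possible with 1 library per condition. The median log2 ratio of GA over control was −0.14 over the 10 genes beside 0.00 over all genes, with 4 genes higher and 6 lower in GA. Intervals below are exact 95% limits for counting error and hold no variation between mice.

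Among the most abundant matrix proteins the libraries were close. Bglap stood at 43598 CPM in GA and 47973 in control (132196 and 126342 UMIs), a log2 ratio of −0.14 (interval −0.15 to −0.13). Bglap2 stood at 16599 and 16591 CPM (log2 ratio 0.00), and Sparc at 46646 and 43453 CPM (0.10). Osteocalcin and osteonectin UMIs thus differed little as shares of the cells' UMIs. The copy Bglap3 was lower in GA, at 708 against 999.8 CPM (−0.50).

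Of the SIBLING genes, Dmp1 was higher in GA and both others were lower. Dmp1 stood at 921 CPM in GA and 466 in control (2794 and 1226 UMIs), a log2 ratio of 0.99 (0.89 to 1.08), the highest of the 10 genes. Spp1 stood at 7332 and 10357 CPM (−0.50) and Ibsp at 3082 and 3866 CPM (−0.33). These values rested on few cells. The 5 cells with most UMIs held 56.7% of GA and 65.0% of control Dmp1 UMIs, and 46.1% and 58.7% of Ibsp UMIs. Without those 5 cells of each library the ratios were 1.29 for Dmp1, −0.21 for Spp1 and 0.03 for Ibsp. The Dmp1 cells left out belonged mostly to cluster 13, described below, which held 11 GA and 6 control cells. A larger part of its control than of its GA cells was thus removed, so the 1.29 compares unlike mixtures of cells.

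Among the enzymes, Alpl and Phex differed in opposite directions. Alpl stood at 134 CPM in GA and 217 in control (405 and 572 UMIs), a log2 ratio of −0.70 (−0.89 to −0.52), and −0.82 without the 5 highest cells. Phex stood at 384 and 266 CPM (1164 and 700 UMIs), a ratio of 0.53 (0.39 to 0.67), and 0.82 without those cells. Enpp1 was sparse, at 78 and 100 UMIs or 25.7 and 38.0 CPM (−0.56, −1.01 to −0.12). This ratio turned to 0.0451 at a mitochondrial limit of 10% and to −1.52 with another clustering seed, and 5 cells held 79.5% and 81.0% of its UMIs. Ifitm5 was close in both libraries, at 451 and 496 CPM (−0.13).

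**Figure D3:**
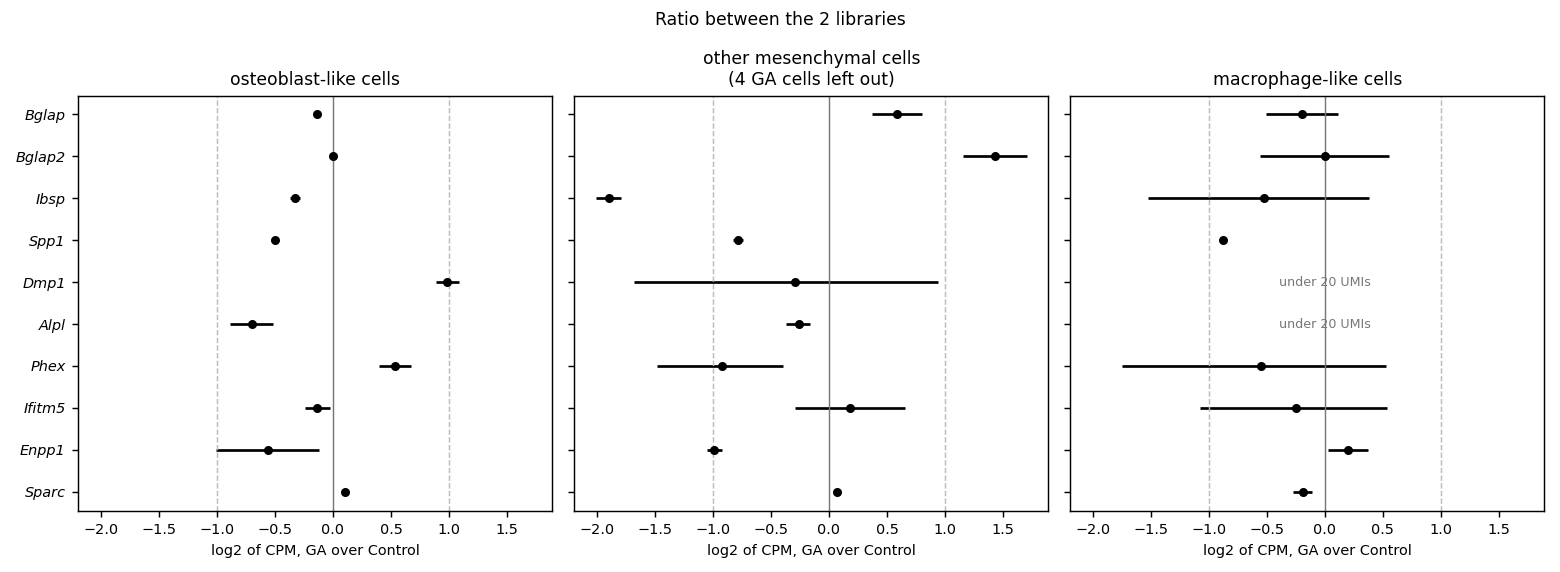
Points give the log2 ratio of CPM, GA over control, of each gene in osteoblast-like cells, other mesenchymal cells without 4 GA cells described in the text, and macrophage-like cells; bars are exact 95% intervals for counting error, and dashed lines mark a ratio of 1 in either direction. In osteoblast-like cells Dmp1 (0.99) lies farthest to the right and Alpl (−0.70) farthest to the left.

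Markers of other cells were low in osteoblast-like cells, apart from neutrophil markers in the control cells of cluster 13. The 8 neutrophil markers summed to 451 CPM in GA and 840 in control, and in control 6577 CPM of them stood in the 6 cells of cluster 13, while cluster 9 held 463 and 358 CPM. The 9 macrophage markers summed to 18.8 and 98.7 CPM, the 6 T or NK markers to 1.32 and 0 CPM. The part of these transcripts in the ratios was not tested.

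Single osteoblast-like cells fell into a larger cluster with high Bglap (cluster 9, 68 GA and 61 control cells) and a small one with high Dmp1 and Phex (cluster 13, 11 GA and 6 control cells). Phex was at least 1005 CPM in every GA cell and at least 1055 CPM in every control cell of cluster 13, and at most 812 and 1099 CPM in cluster 9. Between the clusters the Phex values of GA cells did not overlap, and those of control cells overlapped narrowly. The median Dmp1 level was 3569 CPM in GA and 3499 in control cells of cluster 13, against 50.5 and 0 CPM in cluster 9. Median Ibsp was 11234 and 11544 CPM against 526 and 496 CPM, and so was higher in cluster 13 as well. Bglap ran the other way, with medians of 7008 and 5522 CPM in cluster 13 and 37635 and 45835 CPM in cluster 9. Alpl was at 0 in all 11 GA cells of cluster 13 and present in 2 of its 6 control cells, whereas 40 of 68 GA and 51 of 61 control cells of cluster 9 held it. Sparc did not separate the clusters, with medians of 46611 and 39429 CPM in cluster 13 and 42608 and 41080 CPM in cluster 9. These levels describe the clusters and test nothing, because genes that move with the 10 formed the clusters.

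The library ratios differed between the clusters for some genes. Within cluster 9, Dmp1 stood at 336 CPM in GA and 213 in control (0.66), and Phex at 82.7 and 104 CPM (−0.33). Within cluster 13, Dmp1 stood at 4569 and 3475 CPM (0.39) and Phex at 2262 and 2199 CPM (0.04). So the Phex ratio of 0.53 over all osteoblast-like cells was not seen within either cluster, and cluster 13 made up 11 of 79 GA and 6 of 67 control cells. In cluster 13, 1 of 7 genes with at least 200 UMIs was higher and 1 lower by more than 1, beside 9.25% of 346 genes. Bglap2 was higher, at 8007 and 3554 CPM (1.17), but its split from Bglap, which was not beyond 1, is uncertain. Single cells ranged from 441 to 23908 CPM of Bglap2 in GA and from 737 to 11423 CPM in control. Spp1 was lower, at 8799 and 24798 CPM (−1.49), where the 6 control cells ranged from 64.4 to 103583 CPM of Spp1. The neutrophil markers given above for these 6 cells may enter the cluster 13 ratios, and their part was not tested.

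**Figure D4:**
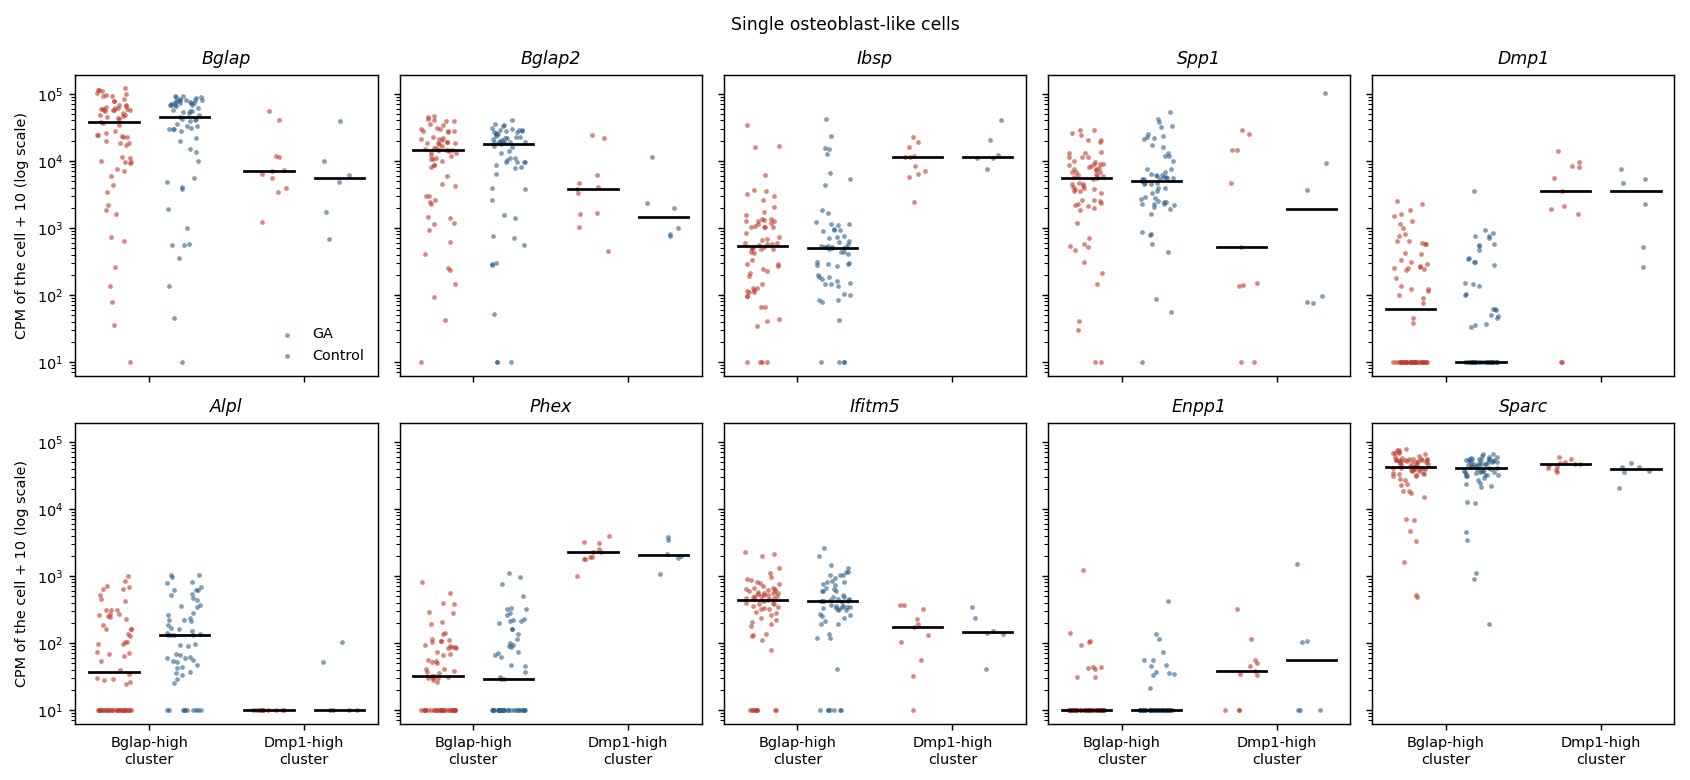
Each point is the level of a gene in 1 osteoblast-like cell (CPM + 10, log scale), GA in red and control in blue, for the Bglap-high cluster 9 (68 and 61 cells) and the Dmp1-high cluster 13 (11 and 6 cells), with medians as black bars. Phex, Dmp1 and Ibsp medians are higher and Bglap, Bglap2 and Ifitm5 medians lower in cluster 13.

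The 10 genes were often detected in the same cells. A median of 8 of the 10 genes was found per osteoblast-like cell in both libraries, against 3 in other mesenchymal cells and 1 in T or NK-like cells. All 10 were found in 2 GA and 7 control cells. Across osteoblast-like cells, the levels of Bglap and Bglap2 were closely related (Spearman's rho 0.96 in GA and 0.96 in control, 79 and 67 cells), and the split of reads between these copies is uncertain. Bglap and Sparc had rho 0.66 and 0.60, and Bglap and Ibsp −0.36 and −0.39. Bglap showed little relation to Dmp1 (0.018 and 0.016) or Phex (0.037 and 0.016) over all osteoblast-like cells. Dmp1 and Phex had rho 0.28 and 0.53, Ibsp and Phex 0.34 and 0.45. Cells of 1 library share their depth range and are no replicates, and the level of Bglap itself was related to the cell's total UMIs (0.53 and 0.40).

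In the mesenchymal lineage outside the osteoblast-like population (791 GA and 1659 control cells), the pattern turned on few cells. The clustering of all cells placed 4 of these GA cells, all of cluster 7, with the osteoblast-like cells. They held 6982 of the 7283 GA Bglap UMIs (95.9%), 3247 of 3499 Bglap2 UMIs (92.8%), 60.7% of Ifitm5 UMIs and 22.0% of Ibsp UMIs. Cluster 7 carried 25772 CPM of summed neutrophil markers in GA and 3536 in control, and 10.8% of 3385 genes there differed by more than 1. With these cells Bglap stood at 165.5 CPM in GA and 4.57 in control, a log2 ratio of 5.18, and without them at 6.87 CPM, a ratio of 0.59. Bglap2 had 5.22 with and 1.43 without them, and Ifitm5 1.53 and 0.18. For Bglap, the 6.87 CPM of GA lay below the level given above for T or NK-like cells. The 4.57 CPM of control lay just above theirs, so both were near the level used to gauge free transcripts. Values below for this group leave the 4 cells out unless stated otherwise.

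Without them, 1 of 7 genes with at least 200 UMIs was higher and 1 lower in GA by more than 1 on the log2 scale (Bglap2 and Ibsp), beside 1.63% higher and 1.81% lower, or 3.45% together, of 12673 genes. With them 3 were higher and 1 lower of 8, beside 1.8% and 1.78%, or 3.58% together, of 12685 genes. Bglap2 stood at 5.75 CPM in GA and 2.13 in control, against 2.12 and 2.82 CPM in T or NK-like cells. Its ratio was 0.30 without the 5 highest cells. Ibsp stood at 18.2 and 67.7 CPM (−1.90). Enpp1 stood at 54.4 and 107.7 CPM (−0.99), Spp1 at 131 and 226 CPM (−0.78) and Alpl at 24.1 and 28.9 CPM (−0.26). Sparc was close, at 13775 and 13123 CPM (0.07). The make-up of this group differed between the libraries. Fibroblastic-like cells made up 5.29% of the GA and 21.1% of the control lineage, and Stem 2-like cells 60% and 43.1%. The ratios of the group therefore compare unlike mixtures of cells, and the part of this mixture in them was not tested. Summed neutrophil markers were 2012 CPM in GA and 240 in control over all other mesenchymal cells, with 8 of 8 markers higher in GA, and their part in these ratios was not tested.

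Bone sialoprotein (Ibsp) differed in opposite directions between mesenchymal clusters. In cluster 5, a multilineage-like cluster led by Ibsp, Sox6 and Fat3, it stood at 120 CPM in GA (526 UMIs) and 456 in control (6074 UMIs), a log2 ratio of −1.93 (−2.06 to −1.80). There, 0.903% of 7637 genes differed by more than 1 in either direction. In cluster 3, a Stem 1-like cluster led by Actg2 and Ibsp, it stood at 116 CPM (225 UMIs) and 35.8 CPM (195 UMIs), a ratio of 1.69 (1.41 to 1.98), against 3.02% of 5294 genes. Few cells carried these UMIs. In cluster 5 they lay in 20 of 88 GA and 34 of 264 control cells (22.7% and 12.9%), and the 5 highest cells held 81.2% and 65.2% of them. In cluster 3 they lay in 5 of 27 GA and 8 of 80 control cells. Leaving out the 5 highest cells moved cluster 5 to −2.76 and left no GA UMI in cluster 3. After thinning to 2000 UMIs, the share of cluster 5 cells with Ibsp was 9.09% in GA and 7.58% in control, so the shares of cells did not follow the lower GA level.

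Osteopontin (Spp1) was lower in GA in 6 of the 15 mesenchymal clusters by more than 1, outside the osteoblast-like clusters, and higher in 2. In cluster 3 it stood at 328 CPM in GA and 1011 in control (−1.62), and in the cycling cluster 11, also Stem 1-like, at 137 and 297 CPM (−1.11, against 1.54% of 7268 genes). In the fibroblastic-like clusters it stood at 66.5 and 243 CPM (cluster 6, −1.87, against 10.8% of 2900 genes) and 92.3 and 276 CPM (cluster 12, −1.58, against 2.41% of 7223 genes). Cluster 4 (−2.41, against 3.62% of 2459 genes) and cluster 14 (−1.31, 1 GA cell, against 31.8% of 814 genes) were lower too. The Stem 2-like clusters 8 and 10 were higher in GA, at 119 against 31.1 CPM (1.94, 2.28% of 5217 genes) and 650.4 against 135 CPM (2.27, 2.64% of 4591 genes). In these, 5 cells held 90.2% and 97.9% of the GA UMIs. Without the 5 highest cells of each library the ratios were −1.09 and −1.81. Outside the lineage Spp1 was lower in GA too, in cells thinned as above. It stood at 21.2 CPM in GA and 89.0 in control T or NK-like cells, and at 33.4 and 51.2 CPM in B-like cells. The 31.1 CPM of control in cluster 8 lay below both of these control values. The part of free transcripts in the ratios −1.09 and −1.81 was not tested. Cluster 5 was close in both libraries (368 and 316 CPM, 0.22).

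The enzymes of pyrophosphate metabolism were spread over different clusters. Enpp1 was lower in GA in Stem 2-like cells as a class, at 28.7 against 75.1 CPM (844 and 3341 UMIs), a log2 ratio of −1.39 (−1.50 to −1.28), the 1 gene of 4 with at least 200 UMIs beyond 1 there (2% of 11091 genes). Within that class cluster 0 carried most of it, at 46.9 and 152 CPM (−1.69, against 1.92% of 9527 genes), and Enpp1 was found in 54.5% of its GA and 85.8% of its control cells at medians of 65870 and 75387 UMIs. In cluster 3, where Enpp1 was highest, the levels were 228 and 304 CPM (−0.42), and in cluster 5 they were 92.2 and 86.9 CPM (0.09). Alpl was carried by cluster 5, which held 43.9% of GA and 53.2% of control Alpl UMIs, at 182 and 144 CPM (0.34). Alpl in cluster 6 was higher in GA, at 333 against 155 CPM (180 and 427 UMIs, ratio 1.10, 0.84 to 1.36), and present in 19 of 19 GA and 48 of 78 control cells. In cluster 6, 10.8% of 2900 genes differed by more than 1, and the 7 general mesenchymal markers summed to 4482 CPM in GA and 9643 in control, whose part in the Alpl ratio was not tested. Phex and Dmp1 were near 0 in these clusters, with at most 6.49 CPM of Phex in any mesenchymal cluster outside the osteoblast-like ones.

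**Figure D5:**
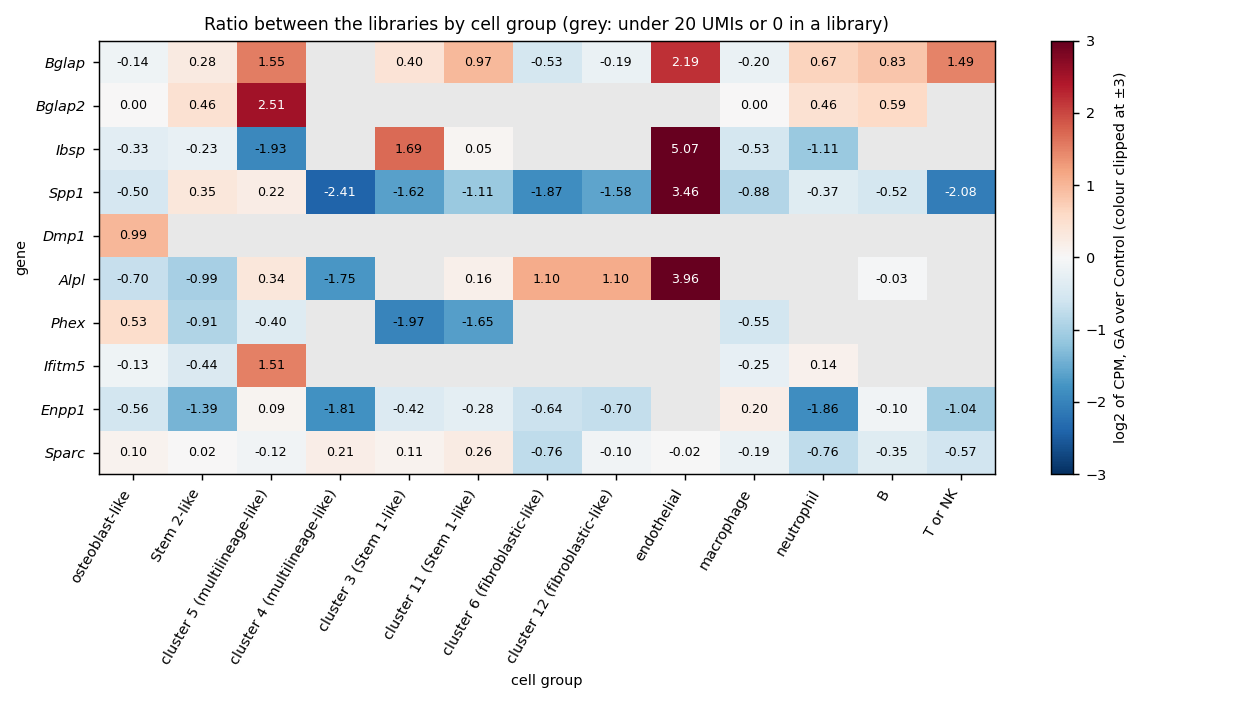
Colours and numbers give the log2 ratio of CPM, GA over control, of each gene (rows) in each cell group (columns), with red higher and blue lower in GA and grey for under 20 UMIs or 0 in a library. Ibsp stands at −1.93 in cluster 5 and 1.69 in cluster 3, its 5.07 in endothelial-like cells rests on 1 GA cell, cluster 7 is not drawn, and the Spp1 row is blue in clusters 4, 3, 11, 6 and 12.

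When the lineage was taken as a whole, the share of osteoblast-like cells entered every value. Then 5 genes were higher in GA by more than 1 and 1 was lower, beside 1.81% higher and 1.67% lower, or 3.48% together, of 12809 genes. Dmp1 (59.7 and 12.9 CPM, log2 ratio 2.205), Phex (25.7 and 8.82 CPM, 1.54), Bglap2 (1144 and 456 CPM, 1.33), Bglap (2965 and 1316 CPM, 1.17) and Ifitm5 (32.3 and 14.7 CPM, 1.14) were higher, and Enpp1 (52.3 and 106 CPM, −1.02) was lower. Ibsp (0.36), Spp1 (0.26), Sparc (0.20) and Alpl (−0.12) lay within 1. Over all kept cells, Dmp1 was higher (17.7 and 7.1 CPM, 1.32) and Enpp1 (19.6 and 61.3 CPM, −1.65) and Spp1 (767 and 1943 CPM, −1.34) lower by more than 1, beside 3.13% higher and 7.02% lower, or 10.1% together, of 15319 genes. The other 7 lay between −0.79 (Alpl) and 0.66 (Phex).

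Outside the mesenchymal lineage, Spp1 in macrophage-like cells was a larger pool than any of Ibsp, Spp1 or Dmp1 elsewhere. It held 80911 GA and 294283 control UMIs, at 4483 and 8231 CPM, a log2 ratio of −0.88 (−0.89 to −0.87). Here 0 of 4 genes with at least 200 UMIs lay beyond 1, against 1.61% of 9738 genes. Spp1 was found in 88.9% of GA and 94.6% of control macrophage-like cells, and after thinning in 72.0% and 82.4%. Their median depths were 21137 and 23173 UMIs, and the summed neutrophil markers in them were 1978 and 305 CPM. Osteoclast-like cells, the cells that resorb bone, held 707 and 793 CPM of Spp1 (16 and 39 cells). Alpl had a second site in B-like cells, at 35.7 and 36.5 CPM in 20.5% and 20.1% of cells. Enpp1 was also found in macrophage-like cells, at 24.8 and 21.6 CPM.

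Some vascular groups carried bone genes in GA through few cells. In endothelial-like cells (43 GA and 52 control) Spp1 stood at 296 CPM in GA and 27.0 in control, and 5 GA cells held 97.0% of its GA UMIs, the 1 of 2 genes with at least 200 UMIs beyond 1 (3.28% of 2866 genes). The GA Ibsp UMIs there, 28 in all, lay in 1 cell. In pericyte-like cells (154 GA and 183 control) 2 of 4 genes lay beyond 1, both higher in GA, beside 15.3% of 2753 genes. Bglap stood at 530.3 CPM in GA and 13.2 in control and Bglap2 at 187 and 9.62 CPM, with 96.6% and 98.9% of the GA UMIs in 5 cells. Summed neutrophil markers were 5229 against 198 CPM in endothelial-like and 4270 against 269 CPM in pericyte-like cells. In pericyte-like cells the 6 pericyte markers summed to 1298 CPM in GA and 5721 in control, with 0 of 6 higher in GA. The 9 macrophage markers there summed to 5616 and 3295 CPM and the 7 erythroid markers to 3152 and 430 CPM, with all of both lists higher in GA, so the class differed in make-up between the libraries. The part of these markers in the ratios was not tested.

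Partner genes of the 10 were taken from 5 lists. In osteoblast-like cells, 5 of 7 phosphate and pyrophosphate genes with at least 20 UMIs (9 listed) were higher and 2 lower in GA. Counting intervals lay above 0 for 2 of the 7 and below 0 for 1. The pyrophosphate exporter Ank stood at 843 CPM in GA and 664 in control (0.34), the phosphate transporter Slc20a1 at 29.4 and 15.2 CPM (0.95) and Xpr1 at 33.3 and 24.7 CPM (0.43). Smpd3, a sphingomyelinase needed for matrix mineral, was lower at 319 and 406 CPM (−0.35), as was Slc20a2 with 9 and 16 UMIs (−1.03). Of the other matrix proteins 6 were higher and 4 lower of 10 with enough UMIs (12 listed), with intervals above 0 for 5 and below 0 for 2. Type I collagen was close (Col1a1 at 132621 and 127578 CPM, 0.06), and the kinase Fam20c, which phosphorylates secreted matrix proteins, was higher at 162 and 89.2 CPM (0.86). Matrix Gla protein (Mgp), an inhibitor of mineral, was lower at 5.94 and 33.4 CPM (−2.49), with 45 of its 88 control UMIs in 1 cell. Ogn, a small leucine-rich proteoglycan, had 8 and 16 UMIs (−1.20). Mepe, a SIBLING gene, had 40 UMIs in GA, 36 of them in 1 cell, and 1 in control (5.12, interval 2.56 to 10.46).

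The osteocyte list did not move one way, with 3 of 5 genes higher and 2 lower (6 listed). Mepe, which is also on the matrix list, was 1 of the 3 higher genes, with 36 of its 40 GA UMIs in 1 cell. Podoplanin (Pdpn), an early osteocyte protein, stood at 183 CPM in GA and 89.99 in control (1.02), with 126 of its 555 GA UMIs in 1 cell. Pdpn did not mark osteoblast-like cells here, at 140 CPM over both libraries against 362 CPM in the rest of the lineage. Irx5 stood at 185 and 140 CPM (0.40). The Wnt inhibitors Dkk1 (29.7 and 57.3 CPM, −0.95) and Sost (8 and 27 UMIs in 4 and 5 cells, −1.96) were lower. Of 9 osteogenic regulators, 3 were higher and 6 lower, with Msx2 (15 and 7 UMIs, 0.90) and Atf4 (244 and 207 CPM, 0.24) highest and Dlx5 (19.8 and 28.5 CPM, −0.53) among the lower ones. Of 9 receptor and processing genes, 4 were higher and 5 lower, from the osteopontin receptor Cd44 (499.6 and 359 CPM, 0.48) and the protease Furin (85.4 and 63.8 CPM, 0.42) to Itgb3 (9.23 and 12.2 CPM, −0.40) and Ggcx (22.1 and 25.4 CPM, −0.20), the enzyme that carboxylates osteocalcin. List medians were 0.28, 0.06, 0.40, −0.18 and −0.04 in the order given, beside 0.00 over all genes.

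In other mesenchymal cells, with the 4 GA cells included, 1 of 8 phosphate and pyrophosphate genes was higher in GA, namely Smpd3 (4.48 and 0.57 CPM, 2.98). Smpd3 is among the osteoblast markers used for naming, and its ratio without the 4 cells was not computed. The other 7 genes were lower, from Abcc6 (5 and 52 UMIs, −2.29) and Ank (85.6 and 149 CPM, −0.80) to Entpd5 (−0.04). Of 9 other matrix proteins 6 were higher and 3 lower. Bglap3 (3.38) and Lox (0.10) were highest, and Mgp (844 and 2072 CPM, −1.29) and Ogn (368 and 479 CPM, −0.38) lowest. Without the 4 cells Bglap3 stood at 0.912 CPM in GA and 0.384 in control (40 and 36 UMIs). Mgp is among the fibroblastic progenitor markers used for naming. Fibroblastic-like cells made up 5.29% of the GA and 21.1% of the control lineage, and the part of this in the Mgp ratio was not tested. Of 3 osteocyte genes 2 were higher, with 33 of the 45 GA UMIs of Fgf23 (2.68) in 1 cell. Of 9 regulators 2 were higher and 7 lower, among them Dlx3 (7 and 43 UMIs, −1.53) and Msx2 (58 and 290 UMIs, −1.23), with Sp7 (0.14) and Atf4 (0.05) highest. Of 9 receptor and processing genes 5 were higher and 4 lower, from Cd44 (0.49) and Itgb3 (0.48) to Itgb1 (−0.24) and Itgav (−0.39). List medians were −0.32, 0.08, 0.19, −0.42 and 0.01 in the same order. Intervals lay above 0 for 1, 5, 2, 1 and 3 genes and below 0 for 6, 3, 1, 5 and 3. Of all genes with at least 200 UMIs there, 48.6% were higher in GA.

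The genes with the most similar level across the 15 mesenchymal clusters, by Pearson correlation of log2(CPM + 1) over both libraries among 12808 genes, followed the same division. For Bglap they were Bglap2 (r 0.996), Bglap3 (0.992) and Col22a1 (0.982), and Ifitm5 was most like Bglap (0.981), Bglap3 (0.981) and Col22a1 (0.973). For Bglap2 they were Bglap, Bglap3 (0.984) and Col22a1 (0.974). For Dmp1 they were Dkk1 (0.996), Ccdc194 (0.995) and Spns2 (0.987), and for Phex they were Spns2 (0.971), Ptprz1 (0.969) and Ccdc194 (0.968). For Ibsp they were Ankrd6 (0.956), Sp7 (0.947) and Fat3 (0.943), and for Sparc they were Col1a2 (0.991), Col1a1 (0.990) and Cgref1 (0.929). Alpl was most like Cybrd1 (0.902), Fzd5 (0.885) and Fgfr3 (0.882), Spp1 like Ints6l (0.954), Ptpn4 (0.951) and Eaf1 (0.944), and Enpp1 like Klc2 (0.961), Cdc37 (0.943) and Cdk2ap1 (0.939). The 15 points share the same 2 libraries, and the members' own place among the leading genes of clusters 9 and 13 enters these values, which are a description.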

How the data were processed

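Cells of healing calvarial bone were measured in 2 libraries, GA and control, with 1 library per condition. The deposited matrices hold UMI counts per gene and barcode, which the authors made with Cell Ranger (7.0.1 per the file headers; mm10 reference per the paper's methods), with no normalization. All columns were mapped to a library.

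Cells with 500 to 140000 UMIs, 200 to 9500 genes and at most 15% mitochondrial UMIs were kept, as in the study's limits where it states them. The automatic Scrublet threshold marked under 0.5% of barcodes, so the highest doublet scores were removed at 0.8% per 1000 barcodes (656 GA and 540 control cells). Pearson residuals (theta 100) of 2000 variable genes, without the 10 genes and Bglap3, gave 50 principal components, which were corrected over libraries by Harmony and clustered by Leiden (resolution 1, 15 neighbours; Python 3.11.15, scanpy 1.11.5, NumPy 2.4.6, SciPy 1.17.1, scikit-learn 1.9.0, igraph 0.11.9). The mesenchymal lineage was clustered again. A cluster was named from listed markers, with at least 3 in 10% of its cells and 2-fold above the median cluster, and a mesenchymal cluster led by 2 or more markers of another class stayed unnamed. These naming thresholds were set after the data were seen. Names rebuilt in this way may differ from those of the study.

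UMIs were summed per group and divided by the group's total (CPM). Intervals are exact 95% limits (Poisson for levels, Clopper-Pearson for shares, conditional binomial for ratios), cover counting error only and allow no test between conditions. Ratios beyond 1 on the log2 scale are counted for genes with at least 200 UMIs, and partner genes need 20 UMIs. Partner genes are named where their ratio lies beyond 1 or among the 2 highest and 2 lowest of their list, and 1 gene that this rule names is not reported here. For each of the 10 genes the 3 genes of most similar level are named. The 10 genes, the lists and the rules were chosen with earlier results of these data known. Simulated UMI sums were drawn from a Poisson model, with the true ratio of 200 genes changed. The intervals held the true ratio for 94% of these 200 in osteoblast-like cells (of 2968 genes). In other mesenchymal cells they held it for 95.5% (200 of 12685 genes changed). Such draws follow the counting model that the intervals assume and hold no variation between cells or mice. They check the calculation and not how well the intervals suit these data.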

Additional observations from a re-analysis of the deposited data

Results flagged for a closer look

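Results in which the GA and control libraries differed in opposite directions between cell groups are given here. With 1 library per condition the difference between groups was not tested. Spp1 was higher in GA in clusters 8 (log2 ratio 1.94) and 10 (2.27) of the mesenchymal lineage, both Stem 2-like. It was lower in GA in clusters 3 (−1.62), 4 (−2.41), 6 (−1.87), 11 (−1.11), 12 (−1.58), 13 (−1.49) and 14 (−1.31). Without the 5 cells of each library with most Spp1 UMIs, clusters 8 and 10 stood at −1.09 and −1.81. The higher values thus rested on those cells, and the part of free transcripts in the ratios that remained was not tested.

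Ibsp was higher in GA in cluster 3 (1.69), where 5 of 27 GA cells carried all its GA UMIs, and in the unnamed cluster 7 (7.65, counting interval 5.16 to 12.96), where 241 GA UMIs lay in 5 cells and control had 1 UMI. It was lower in GA in cluster 5 (−1.93).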

How the results depend on the processing

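No paired analysis was possible because each condition has 1 library and no test was made. The osteoblast-like share of the lineage, GA over control, ranged from 2.26 to 2.55 over 13 alternatives (2.34 in the report). The median log2 ratio of the 10 genes in osteoblast-like cells (−0.14) stayed below 0 in 18 of 18 alternatives, and was −0.0468 at a mitochondrial limit of 10%, −0.0375 without the 5 cells with most UMIs and −0.22 after thinning. Over these alternatives Dmp1 ranged from 0.87 to 1.29, Phex from 0.28 to 0.82, Spp1 from −0.68 to −0.21 and Enpp1 from −1.52 (seed 2) to 0.0451 (10% mitochondrial limit), the widest of these. The highest Dmp1 and Phex values came from leaving out the 5 top cells. This removed a larger part of the control than of the GA cells of cluster 13. Alpl ranged from −0.82 to −0.27, and was −0.88 with the CPM of B-like cells subtracted, which removes a level that B-like cells carry themselves. In other mesenchymal cells the median (−0.09) was −0.22 with doublets kept, −0.20 at the 10% limit, −0.29 with the 10 genes among the variable genes, −0.45 at Leiden resolution 0.5, −0.49 with log1p values, −0.28 with seed 6, −0.0288 as a mean over cells, −0.41 without the 5 top cells, −0.34 with the CPM of B-like cells subtracted, 0.0254 after thinning and −0.28 without the 4 GA cells. There Ifitm5 (1.53) turned to −0.64 with log1p values and −0.19 without the 5 top cells, and Bglap ranged from 0.57 to 5.75. Over all kept cells the median (−0.07) was −0.34 as a mean over cells, 0.00855 centred on the median gene, 0.33 with B-like CPM subtracted and −0.48 after thinning. Macrophage-like Spp1 (−0.88) was −0.86 after thinning and −0.97 without the 5 top cells. The median share of lineage UMIs in osteoblast-like cells (81.6%) was 69.8% with doublets kept and 80.6% at resolution 0.5. The causes of these shifts were not tested. The further Leiden seeds and the removal of the 4 GA cells were added after seeing the data. Variation between mice is not measured by 1 library per condition, and genes under 20 UMIs in a group give no usable ratio.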
